A study of Mus musculus with 27 samples.

Results

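Cells that hold together through adherens junctions carry cadherins on their surface and catenins underneath them, and 10 such genes were followed across control, Runx1KO and ZebDKO mK4 cells. They were taken by symbol: 6 cadherins (Cdh1, Cdh2, Cdh3, Cdh6, Cdh11 and Cdh16), the epithelial adhesion molecule Epcam and the catenins Ctnnb1, Ctnna1 and Ctnnd1. All 10 symbols had a row among the 24953 genes of the deposited expression table. The mK4 line comes from mouse metanephric mesenchyme, the embryonic tissue that turns into kidney tubule. Control cells were unedited mK4 cells. Runx1KO cells had lost exon 3 of Runx1 to CRISPR-Cas9, and ZebDKO cells had lost exon 2 of Zeb1 and exon 1 of Zeb2 in the same way. Both knockouts were grown from picked clones in serum-containing medium, with Runx2 still present in Runx1KO cells, and 3 RNA-seq libraries of each of the 3 groups were taken from cultures near confluence. How many clones each genotype stands for is not stated in the sources used here, so clone and genotype cannot be told apart, and p-values measure the spread between these cultures. Whether the ZebDKO libraries were made in the same run as the others is not stated either. If they were not, run and genotype cannot be told apart for ZebDKO cells.

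A classical cadherin binds the same cadherin on the neighbouring cell through its outer part. Its tail binds beta-catenin (Ctnnb1), which binds alpha-catenin (Ctnna1) and through it actin, while p120-catenin (Ctnnd1) holds the cadherin at the membrane. In the developing kidney, mesenchyme that becomes epithelium lowers some cadherins and raises others, and a replacement of N-cadherin (Cdh2) by E-cadherin (Cdh1) or the reverse is called a cadherin switch. Zeb1 and Zeb2 are repressors best known for binding E-box sequences in epithelial genes, Cdh1 among them.

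The switch in its textbook form was not seen in these libraries. Cdh2 fell in both knockouts while Cdh1 stayed under 1 TPM (TPM being the abundance of a transcript in a form that allows for the length of the gene and the size of the library) in all 9 libraries. Cdh16 and Cdh3 rose in both knockouts and Cdh6 rose in ZebDKO cells, where Epcam was also present. The log2 differences of the 3 catenins stayed within 0.39 of control on the deposited scale. The plot of all 10 genes by library shows these levels.

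**Figure D1:**
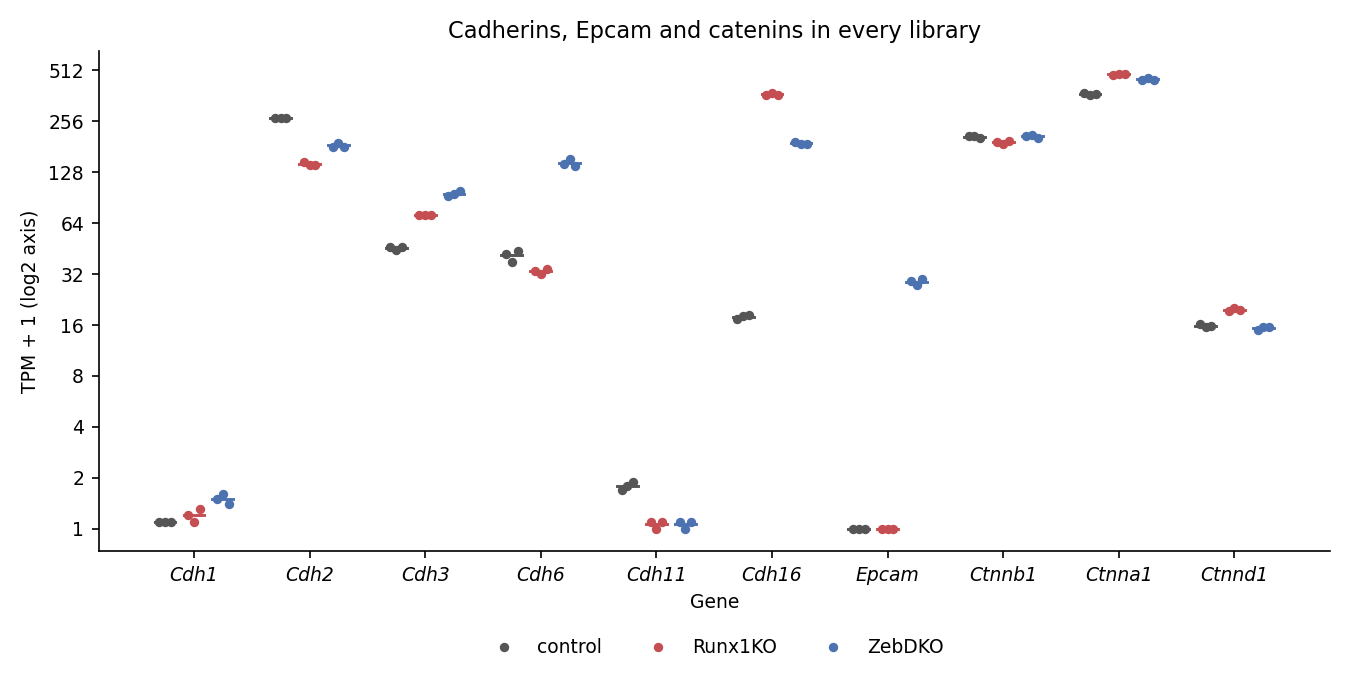
Level of each of the 10 genes as TPM + 1 on a log2 axis, with 1 point for each library and a bar at the mean of the 3 libraries of a group. Cdh16 lay at 16.3 to 17.3 TPM in control libraries and at 187 TPM or more in both knockouts, Epcam lay above 0 in ZebDKO libraries alone, and Cdh1 lay under 1 TPM throughout.

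The deleted genes were looked at first. Runx1 was at 17.4 TPM ± 1.61 (SD, n = 3) in control libraries, 29.6 ± 0.987 in Runx1KO libraries and 10.1 ± 0.608 in ZebDKO libraries. Zeb1 was at 15.0 ± 0.710 in control, 0.167 ± 0.0577 in Runx1KO and 16.1 ± 1.10 TPM in ZebDKO libraries, and Zeb2 was at 5.2 ± 0.300, 0.2 and 1.7 TPM. A TPM value covers the whole gene, and the deleted exons are a small part of it, so these levels do not check the knockouts. They do show that the RNA of both Zeb genes was lowest in the Runx1KO libraries. Libraries of a group resembled each other closely, with 12541 to 12697 genes at 1 TPM or more in each and correlations within a group from 0.9941 to 0.9955. The labelled mesenchyme origin was visible in part: Pax2, Sall1 and Hoxa11 were above 35 TPM in all 9 libraries, whereas Six2, Wt1, Cited1, Meox1 and Hoxd11 were under 1 TPM in all 9. Of 8 ureteric bud markers, Hoxb7 was at 67.1 to 107.4 TPM, Wnt11 was at 1.2 to 1.4 TPM in Runx1KO libraries alone, and the other 6 were at 0.5 TPM or less. Of 5 stromal markers, 4 were tested and all 4 were lower in both knockouts (limma, adjusted p under 0.05). Over all genes tested, 40.1% were lower in Runx1KO and 52.5% in ZebDKO cells. Foxd1 stood at 93.1 TPM in control, 62.0 in Runx1KO and 57.2 in ZebDKO cells, Tbx18 at 57.3, 32.4 and 26.8 and Ntn1 at 78.7, 8.6 and 59.9. Pdgfrb stood at 1.47, 0.733 and 0.6 TPM, reached 1 TPM in control libraries alone and so had to differ to be tested. Tcf21 was listed at 0. The stromal list summed to 220.0 to 237.8 TPM in control, 102.0 to 107.0 in Runx1KO and 142.6 to 145.5 in ZebDKO libraries. Of 6 endothelial markers, Pecam1, Kdr, Tek and Emcn were at 0.2 TPM or less, and Flt1 and Cdh5 brought the sum to 5.8 to 7.4 TPM in control, 1.0 to 1.3 in Runx1KO and 4.2 to 6.4 in ZebDKO libraries. Of 4 blood markers, Ptprc was listed at 0 and Lyz2 was at 0.4 TPM or less, Cd68 stood at 2.17, 2.03 and 2.87 TPM, and Hba-a1 at 5.97, 1.03 and 1.07 TPM, called 2-fold lower in both knockouts. The mesenchyme list summed to 671.2 to 682.1, 716.5 to 784.6 and 615.5 to 645.7 TPM in control, Runx1KO and ZebDKO libraries, and the ureteric list to 67.8 to 75.3, 84.9 to 96.9 and 93.9 to 108.0 TPM. Single mesenchyme markers moved with the knockouts: Osr1 went from 66.4 TPM in control to 0.4 in Runx1KO and 18.2 in ZebDKO cells and Gdnf from 12.7 to 0.1 and 39.8 TPM. Whether a change in the mix of cell states had a part in the results was not tested, and fewer cells of a kind cannot be told apart from less RNA per cell.

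Cdh2 (ENSMUSG00000024304.8), N-cadherin, is the cadherin of mesenchyme and nerve cells and had the highest level of the 6 cadherins in control cells. It stood at 267.8, 266.5 and 267.0 TPM in the 3 control libraries. In Runx1KO libraries it stood at 145.6, 139.6 and 141.2 TPM, and in ZebDKO libraries at 179.6, 190.1 and 180.3 TPM. The 3 groups did not overlap, with control highest, ZebDKO in the middle and Runx1KO lowest. On the log2(TPM + 1) scale, with limma and Benjamini-Hochberg adjustment over all genes tested, Cdh2 fell by 0.91 in Runx1KO cells (SE 0.025, adjusted p = 1.575e-07) and by 0.54 in ZebDKO cells (SE 0.031, adjusted p = 3.546e-06). The direct comparison of the knockouts placed ZebDKO 0.36 above Runx1KO (SE 0.033, adjusted p = 3.161e-05). Neither fall reached the 2-fold limit used for calls.

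Cdh1 (ENSMUSG00000000303.6), E-cadherin, holds most epithelia together and is the usual partner of Cdh2 in a switch. It was listed at 0.1 TPM in each of the 3 control libraries. It stood at 0.2, 0.1 and 0.3 TPM in Runx1KO libraries and at 0.5, 0.6 and 0.4 TPM in ZebDKO libraries. The ZebDKO values lay above all others, but by only a few steps of 0.1 TPM, the smallest step the table records. The gene did not reach 1 TPM in 3 libraries and was therefore not tested. With that limit removed, limma put ZebDKO 0.45 above control on the log2(TPM + 1) scale (adjusted p = 0.00254) and Runx1KO 0.12 above it (adjusted p = 0.2577). A second deposited table of the control and Runx1KO libraries, with 2 decimals, ranged from 0.02 to 0.04 TPM over the control libraries and from 0.02 to 0.1 TPM over the Runx1KO libraries. As a description, log2 of (Cdh1 + 1)/(Cdh2 + 1) was −7.93 ± 0.0035 (SD, n = 3) in control, −6.90 ± 0.116 in Runx1KO and −6.94 ± 0.0643 in ZebDKO cells. With Cdh1 so low, that ratio rests on the added 1 TPM: of the move from control to ZebDKO cells, Cdh1 + 1 gave 0.45 and Cdh2 + 1 gave 0.54.

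Among 13374 genes, those whose log2 levels over the 9 libraries were most like those of Cdh2 were Rbbp7 (Pearson r = 0.9987), Nt5dc2 (r = 0.9984) and Lpar1 (r = 0.9979). Rbbp7 ran from 893.4 TPM in control to 591.8 in Runx1KO and 700.4 in ZebDKO cells. For Cdh1 they were Usp19 (r = 0.9741), Plekhb2 (r = 0.9733) and Mast1 (r = 0.9728), and with Cdh1 recorded in steps of 0.1 TPM under 1 TPM this order carries little. The 9 points are 3 groups of 3, so these values describe shared group levels.

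Cdh16 (ENSMUSG00000031881.4), kidney-specific or Ksp-cadherin, is found on tubule epithelium and lacks the catenin-binding tail of the classical cadherins. It rose most of the 10 genes in Runx1KO cells. The 3 control libraries held 16.3, 17.1 and 17.3 TPM. The Runx1KO libraries held 366.4, 374.7 and 365.8 TPM, and the ZebDKO libraries 191.0, 187.0 and 188.0 TPM. None of the groups overlapped, and the spread within each was small beside the gaps between them. The mean was 21.8 times control in Runx1KO cells, a log2 difference of 4.37 (SE 0.032, limma adjusted p = 1.214e-09). In ZebDKO cells it was 11.2 times control, a log2 difference of 3.41 (SE 0.036, limma adjusted p = 2.506e-09). ZebDKO cells held 0.511 times the Runx1KO level, and Cdh16 thus fell by 0.96 from Runx1KO to ZebDKO cells on the log2 scale (SE 0.023, limma adjusted p = 7.926e-08).

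Cdh3 (ENSMUSG00000061048.6), P-cadherin, is a classical cadherin of epithelia and their stem cells. It was at 45.1, 43.5 and 45.1 TPM in control libraries. It was at 70.5, 70.7 and 70.2 TPM in Runx1KO libraries and at 91.9, 94.0 and 98.4 TPM in ZebDKO libraries. The order, again without overlap, was control, Runx1KO and ZebDKO from low to high. The log2 difference from control was 0.65 in Runx1KO cells (SE 0.029, limma adjusted p = 1.534e-06) and 1.07 in ZebDKO cells (SE 0.038, limma adjusted p = 4.04e-07), and ZebDKO exceeded Runx1KO by 0.42 (SE 0.033, limma adjusted p = 1.567e-05).

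Cdh6 (ENSMUSG00000039385.4), K-cadherin, marks the early renal vesicle and the cells that form proximal tubule. Of the 4 member cadherins tested, it was the one that passed the test in opposite directions in the knockouts. Control libraries held 41.3, 36.8 and 42.9 TPM, Runx1KO libraries 32.5, 31.2 and 33.2 TPM, and ZebDKO libraries 142.5, 152.2 and 138.7 TPM. All 3 Runx1KO values lay below all 3 control values, and all 3 ZebDKO values lay above them. Cdh6 fell by 0.31 on the log2 scale in Runx1KO cells (SE 0.060, limma adjusted p = 0.002934) and rose by 1.82 in ZebDKO cells (SE 0.063, limma adjusted p = 3.615e-07). The difference between the knockouts was 2.13 (SE 0.044, limma adjusted p = 4.299e-08), with ZebDKO at 4.47 times the Runx1KO mean.

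Cdh11 (ENSMUSG00000031673.5), cadherin-11 of bone-forming and other mesenchymal cells, was barely detected. It was listed at 0.7, 0.8 and 0.9 TPM in control libraries, at 0.1, 0 and 0.1 TPM in Runx1KO libraries and at 0.1, 0 and 0.1 TPM in ZebDKO libraries. The control values lay above those of both knockouts, but no group reached 1 TPM and the gene was not tested. Without the limit, limma gave a log2(TPM + 1) value that fell by 0.75 in Runx1KO cells (adjusted p = 9.243e-04). The second table gave control cells 2.68 TPM and Runx1KO cells 1.99 TPM, where it fell by 0.30 (limma adjusted p = 0.02178), so its level depended on which table was read.

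Added up, the 6 cadherins gave 364.8 to 373.3 TPM in control, 610.8 to 616.3 in Runx1KO and 605.6 to 623.9 in ZebDKO libraries. Cdh2 made up 72.2% ± 0.771 of that sum in control cells (SD, n = 3). Its share was 23.1% ± 0.507 in Runx1KO and 30.0% ± 0.443 in ZebDKO cells. Cdh16 went from 4.57% ± 0.159 in control to 60.1% ± 0.646 in Runx1KO and 30.9% ± 0.799 in ZebDKO cells. Control cells thus held mainly Cdh2 RNA and Runx1KO cells mainly Cdh16 RNA, while in ZebDKO cells no cadherin passed 31.54% in any library, with Cdh6 at 23.6% ± 0.755 and Cdh3 at 15.5% ± 0.649. These shares also depended on the table read: in the second table the 6 summed to 253.0 TPM in control and 911.2 in Runx1KO cells, with Cdh2 at 63.99% ± 0.876 and 9.21% ± 0.309 and Cdh16 at 9.80% ± 0.334 and 80.7% ± 0.433 (SD, n = 3). That table gave lower Cdh2 (161.8 TPM in control) and Cdh6 (18.3 TPM) and higher Cdh16 (735.2 TPM in Runx1KO cells), with the same directions. The sum moves with the gene set chosen too: with 16 further cadherins added, the 6 made up 70.8% to 71.3% of all cadherin TPM in control, 79.6% to 80.1% in Runx1KO and 81.6% to 82.6% in ZebDKO libraries. Shares of TPM compare RNA per length of transcript, not protein.

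**Figure D2:**
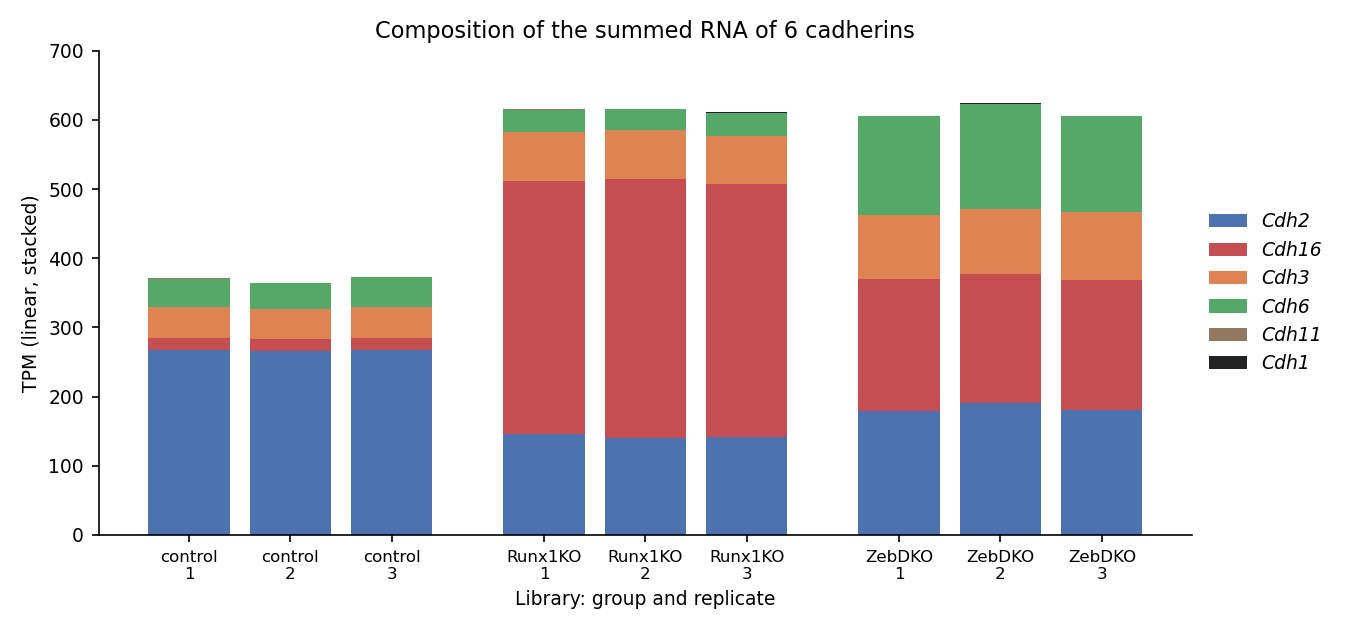
Stacked TPM of the 6 cadherins in each of the 9 libraries, on a linear axis. Cdh2 is the largest block in the 3 control libraries, Cdh16 the largest in the 3 Runx1KO libraries, and the 3 ZebDKO libraries are divided among Cdh16, Cdh2, Cdh6 and Cdh3.

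Epcam (ENSMUSG00000045394.8) encodes a cell surface glycoprotein of epithelia that adheres to itself on the next cell and is not a cadherin. It was listed at 0 in the 3 control libraries and in the 3 Runx1KO libraries of both deposited tables. The ZebDKO libraries held 28.3, 26.7 and 28.8 TPM. It was therefore above 0 in 3 of 3 ZebDKO libraries and in 0 of 6 others, and no fold change is given against a level of 0. It passed the limit of 1 TPM in 3 libraries only through the ZebDKO libraries, where it had to differ to be tested at all, so its levels are given as a description and no p is offered for it. Zeb1 and Zeb2 RNA was lowest in the Runx1KO libraries, but in ZebDKO cells it comes from edited genes and does not measure Zeb protein. By Western blot the paper found Zeb1 protein lost in both knockouts. What part the loss of Zeb had in the level of Epcam was not tested.

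Epcam lies on chromosome 17 from 88035319 to 88050446 on the plus strand of mm9. No deposited ATAC-seq region covered its start, and the nearest one was a region that opened in Runx1KO cells, 15.8 kb upstream of the start (chr17:88019333-88019729). No Runx1 or Runx2 ChIP-seq peak lay in the gene or within 20 kb of it. The middle 300 bases of that region (mm9, plus strand, chr17:88019381-88019680) are shown first. The RefSeq promoter follows (GRCm38.p6, plus strand, chr17:87635729-87636028, 250 bases before to 50 after the start). Both were picked as holding the E-box letters of Zeb proteins. Epcam was listed at 0 in Runx1KO libraries as in control, although the region opened in Runx1KO cells. Whether these letters have a part in the level of Epcam was not tested. Capitals mark matches on either strand to CAGGTA or CAGGTG (E-box) and to TGTGGT (Runx).
Epcam upstream opening region: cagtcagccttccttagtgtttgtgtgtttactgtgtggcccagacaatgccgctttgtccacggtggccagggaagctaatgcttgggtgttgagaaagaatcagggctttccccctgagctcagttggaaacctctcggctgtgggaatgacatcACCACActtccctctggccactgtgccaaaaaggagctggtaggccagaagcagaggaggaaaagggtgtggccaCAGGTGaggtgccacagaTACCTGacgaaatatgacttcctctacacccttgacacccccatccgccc
Epcam promoter: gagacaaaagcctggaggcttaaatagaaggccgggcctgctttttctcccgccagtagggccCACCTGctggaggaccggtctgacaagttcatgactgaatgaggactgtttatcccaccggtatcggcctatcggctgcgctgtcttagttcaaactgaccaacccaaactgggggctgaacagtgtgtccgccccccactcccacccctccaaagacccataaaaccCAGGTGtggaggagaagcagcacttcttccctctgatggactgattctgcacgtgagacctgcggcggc
The upstream region held 2 E-box matches and 1 Runx match, and the promoter held 2 E-box matches and no Runx match. An E-box match is common: 62.7% of all 9427 opening regions, 33.3% of stable regions and 29.5% of 32851 RefSeq promoters held at least 1 in the same number of bases. The ATAC-seq libraries of the series come from control and Runx1KO cells alone. Whether this region is open in the cells that express Epcam therefore cannot be read from these data.

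The catenins are the shared inner layer of the junction. Ctnnb1 (ENSMUSG00000006932.9), beta-catenin, which also acts in Wnt signalling, stood at 208.1, 209.2 and 202.4 TPM in control libraries. It stood at 193.6, 187.3 and 193.9 TPM in Runx1KO and at 208.7, 212.7 and 202.3 TPM in ZebDKO libraries. Control and ZebDKO values overlapped, and Runx1KO values lay below both. Ctnnb1 fell by 0.11 on the log2 scale in Runx1KO cells (SE 0.027, limma adjusted p = 0.008764), and this call was lost when libraries were scaled by median ratios (fell by 0.0481, adjusted p = 0.1562). In ZebDKO cells the log2 difference was 0.0091 with a 95% interval from −0.063 to 0.081 (limma adjusted p = 0.7969).

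Ctnna1 (ENSMUSG00000037815.6), alpha-E-catenin, had the highest TPM of the 10 genes in every group of the 9-library table, though not in the second table, where Ctnnb1 (238.6 TPM) exceeded it (213.7 TPM) in control and Cdh16 exceeded it in Runx1KO cells. It was at 377.8, 366.5 and 370.0 TPM in control, 481.7, 488.7 and 490.0 TPM in Runx1KO and 451.5, 458.7 and 447.7 TPM in ZebDKO libraries. Both knockouts lay above control without overlap, by a log2 difference of 0.39 in Runx1KO cells (SE 0.022, limma adjusted p = 5.819e-06) and 0.28 in ZebDKO cells (SE 0.025, limma adjusted p = 3.197e-05). ZebDKO lay 0.10 below Runx1KO (log2 difference −0.1048, limma adjusted p = 0.002765), and that order turned under median-ratio scaling (0.0534, adjusted p = 0.05704).

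Ctnnd1 (ENSMUSG00000034101.8), p120-catenin, stood at 15.2, 14.5 and 14.9 TPM in control, 18.4, 19.2 and 18.7 TPM in Runx1KO and 13.9, 14.6 and 14.5 TPM in ZebDKO libraries. Only the Runx1KO values stood clear of the others. Ctnnd1 rose by 0.32 on the log2 scale in Runx1KO cells (SE 0.040, limma adjusted p = 3.208e-04), while the ZebDKO difference of −0.0494 had a 95% interval from −0.157 to 0.059 (limma adjusted p = 0.3487). The knockouts differed by −0.37, ZebDKO lower (SE 0.042, limma adjusted p = 1.142e-04). The second table gave control cells 68.0 TPM of Ctnnd1 and Runx1KO cells 88.8 TPM, so its level depended on the table while its rise (0.38, limma adjusted p = 2.693e-05) was present in both.

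Counts over the 10 genes were read against all genes, with Epcam left out of them for the reason given. In Runx1KO cells 7 of the 10 were tested. At an adjusted p under 0.05, 4 were higher (Cdh3, Cdh16, Ctnna1 and Ctnnd1) and 3 lower (Cdh2, Cdh6 and Ctnnb1), beside 30.4% of the 13067 genes tested that were higher and 40.1% that were lower. At a further limit of 2-fold, 1 was higher (Cdh16) and 0 lower, beside 7.91% higher and 5.10% lower over all genes. In ZebDKO cells 7 were counted, of which 4 were higher (Cdh3, Cdh6, Cdh16 and Ctnna1) and 1 lower (Cdh2), beside 26.9% and 52.5% of 12974 genes. At 2-fold 3 of the 7 were higher (Cdh3, Cdh6 and Cdh16) and 0 lower, beside 7.50% and 7.28%. The comparisons share the control libraries and are not independent of each other. Between the knockouts 7 were counted, with 4 higher in ZebDKO cells (Cdh2, Cdh3, Cdh6 and Ctnnb1) and 3 lower (Cdh16, Ctnna1 and Ctnnd1), beside 29.8% and 50.2% of 13071 genes. At 2-fold 1 was higher (Cdh6) and 0 lower, beside 6.60% and 9.20%. Most of all tested genes passed the first limit. The median log2 difference over the 7 genes was 0.32, 0.28 and 0.12 in these comparisons, beside −0.0586, −0.1845 and −0.1487 over all genes tested.

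The negative medians over all genes matter for the small changes. Median-ratio scaling moved the median of all genes to −0.0014 in the comparison of ZebDKO with control and to −0.0007 between the knockouts, a shift of over 0.1, and the split of all genes then became 38.2% higher and 37.9% lower, and 39.4% and 39.7%. In Runx1KO cells the split became 34.7% higher and 34.1% lower. Relative to that shifted centre, Ctnnb1 in ZebDKO cells was 0.20 above control (limma adjusted p = 5.662e-04) and Ctnnd1 0.13 above it (limma adjusted p = 0.02506). The changes of Cdh2, Cdh3, Cdh6 and Cdh16 kept their direction under both median-ratio and quantile scaling. The plot of differences and intervals shows the gap between the cadherins that moved by 1 or more and the catenins near 0.

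**Figure D3:**
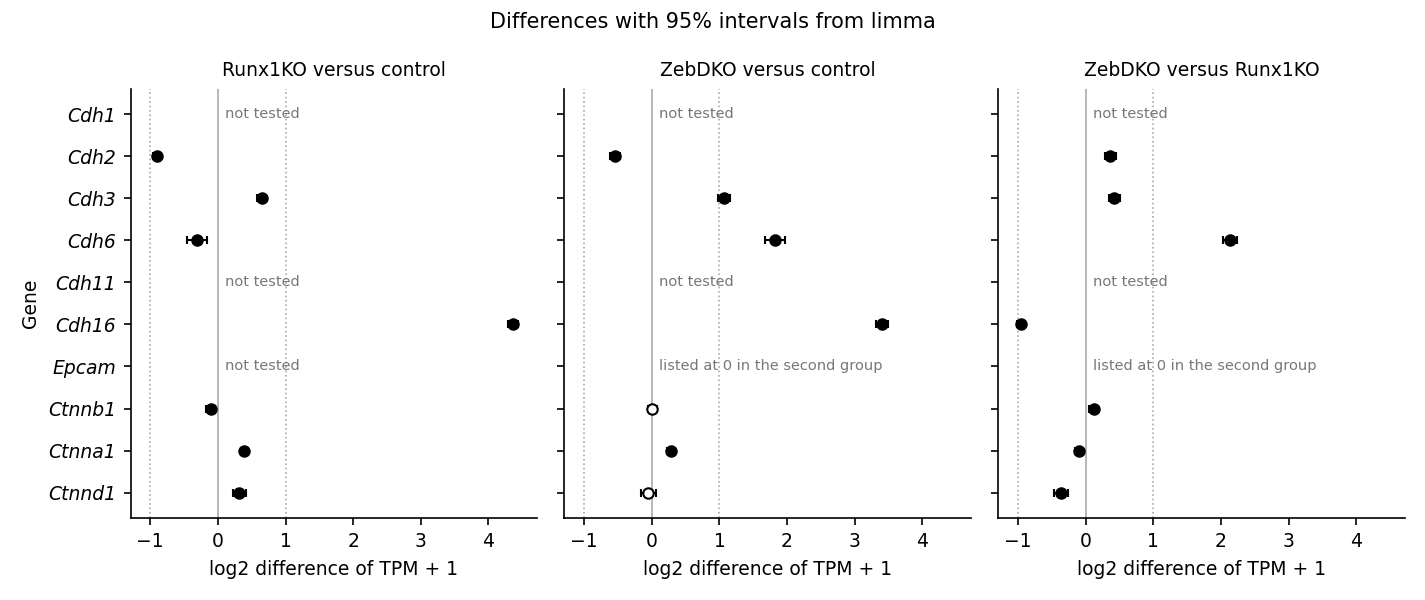
Log2 differences of TPM + 1 for each tested gene in the 3 comparisons, with 95% limma intervals, filled where the adjusted p was under 0.05 and open where not; dotted lines mark 2-fold. Cdh16 stands at 4.37 and 3.41 in the knockouts against control, Cdh6 at −0.31 and 1.82, and the 3 catenins stay within 0.39 of 0. No point is drawn for Epcam, listed at 0 in the second group.

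Of 16 other cadherins, 6 were tested in Runx1KO cells, with 2 higher and 4 lower, and 5 in ZebDKO cells, with 1 higher and 3 lower, beside 30.4% higher and 40.1% lower over all genes in Runx1KO cells and 26.9% and 52.5% in ZebDKO cells. Cdh19 and Cdh26 in both knockouts, and Cdh18 in Runx1KO cells, reached 1 TPM only through the higher group. Like Epcam, they had to differ to be tested, so their part in these counts carries no weight. Cdh13, a cadherin anchored by lipid without a tail, was the most abundant, at 100.9 TPM in control, 114.8 in Runx1KO and 80.9 in ZebDKO cells, log2 differences of 0.19 and −0.32 (limma adjusted p = 6.861e-04 and 1.321e-04). Cdh24 stood at 39.2, 35.9 and 46.7 TPM, log2 differences of −0.12 and 0.25 (limma adjusted p = 0.01261 and 5.325e-04). Both thus passed the test in opposite directions in the knockouts. The Runx1KO difference of Cdh24 lay near the median of all genes in that comparison (−0.0586), so it is not read as a fall of its own. Cdh26 went from 3.57 TPM in control to 0.5 in Runx1KO and 0.1 in ZebDKO cells, and Cdh19 from 1.9 to 0 and 0.1 TPM. Cdh18 was at 0.0333, 2.43 and 0.1 TPM, above 1 TPM in Runx1KO cells alone. Cdh5, the endothelial cadherin, was at 3.73, 1.13 and 4.67 TPM and of the other endothelial markers Flt1 moved with it in Runx1KO cells, at 2.8, 0 and 0.6 TPM.

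Of 21 genes that link cadherins to actin or form the neighbouring nectin junction, 18 were tested in each knockout. In Runx1KO cells 12 were higher and 3 lower (median log2 difference 0.29), beside 30.4% and 40.1% of all genes (median −0.0586). In ZebDKO cells 11 were higher and 6 lower (median 0.20), beside 26.9% and 52.5% (median −0.1845). Camsap3 and Nectin4 reached 1 TPM only through the higher group and had to differ to be tested, so their part in these counts carries no weight. Jup, plakoglobin, which can take the place of beta-catenin on a cadherin tail and also serves desmosomes, went from 70.3 TPM in control to 216.7 in Runx1KO and 146.7 in ZebDKO cells, log2 differences of 1.61 and 1.05 (limma adjusted p = 5.949e-08 and 8.908e-07). Ctnnal1, an alpha-catenin relative, went from 40.5 TPM to 102.6 and 57.1 TPM, log2 differences of 1.32 and 0.48. Camsap3, which ties microtubule ends to the junction, went from 0.0667 TPM to 3.0 and 2.37 TPM. Ajuba, a LIM protein bound to alpha-catenin, rose by 0.61 and 0.51. The nectins differed among themselves: Nectin2 rose in both knockouts (71.8 TPM in control, 99.3 in Runx1KO, 138.3 in ZebDKO). Nectin1 rose in Runx1KO (3.87 to 10.4 TPM) and fell in ZebDKO cells (1.6 TPM). Nectin3 did likewise, with log2 differences of 0.14 and −0.77. Nectin4 went from 2.47 TPM in control to 0.567 in Runx1KO and 0.667 in ZebDKO cells. Ctnnbip1 was lower in both knockouts (log2 differences −0.81 and −0.30). Lima1 was lower in Runx1KO (−0.54) and higher in ZebDKO cells (0.24). In ZebDKO cells Plekha7 (−0.49) and Limd1 (−0.26) were lower, while Limd1 was higher in Runx1KO cells (0.10). The ZebDKO differences of Limd1 and Ctnnbip1 lay near the median of all genes in that comparison (−0.1845), so they are not read as falls of their own. Vezt, which binds the cadherin complex, did not pass the test in either knockout (log2 differences −0.10 and 0.02).

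Of 12 genes that cleave or turn over cadherins, all 12 were tested. In Runx1KO cells 7 were higher and 3 lower, with no 2-fold call, beside 30.4% and 40.1% of all genes. In ZebDKO cells 3 were higher and 4 lower, beside 26.9% and 52.5%, and 5 did not pass. Adam10, the protease that sheds Cdh1 and Cdh2, fell by 0.24 and 0.46 on the log2 scale, from 124.2 TPM in control to 105.0 in Runx1KO and 89.7 in ZebDKO cells. Furin, which removes the propeptide of cadherins, rose by 0.62 and 0.50. Psen2, a subunit of the gamma-secretase, rose by 0.72 and 1.34, from 5.67 TPM to 9.9 and 15.8 TPM.

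Genes whose products bind or cleave Epcam, or are inhibitors of the proteases that do, were followed beside it. Spint2, a protease inhibitor of epithelia, went from 18.1 TPM in control to 151.1 in Runx1KO and 158.2 in ZebDKO cells, and the knockouts did not differ past the limit (log2 difference 0.07, SE 0.037, limma adjusted p = 0.1357). St14, the protease matriptase, stood at 0.0333, 0.433 and 3.87 TPM. Cd9, the most abundant of those followed, stood at 401.7, 632.5 and 542.8 TPM, and Tspan8 at 1.27, 1.4 and 4.6 TPM. Cldn7 (0, 0.0333 and 0.133 TPM) and Spint1 (0.0667, 0.133 and 0.2 TPM) stayed near 0 in all groups. Cd44, which forms complexes with Epcam, went from 52.0 TPM to 27.2 and 44.6 TPM, log2 differences of −0.91 and −0.22. The ZebDKO difference lay near the median of all genes in that comparison (−0.1845), so it is not read as a fall of its own.

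Deposited peak lists place open chromatin and Runx binding around the 10 genes. They hold ATAC-seq regions that closed, opened or stayed the same in Runx1KO against control cells, and ChIP-seq peaks of Runx1 in control cells and of Runx2 in control and Runx1KO cells. Each list is 1 set for the whole experiment, so no replicate test was possible. A peak was assigned to a gene when it lay in the gene or within 20 kb of either end. Of the 10 genes, 6 had an opening region (10 regions), beside 31.7% of 20260 genes with a position, and 4 had a closing region (9 regions), beside 22.6%. A stable region lay at 9 of the 10 (all but Cdh11), beside 75.5%. Runx1 peaks lay at 6 of the 10, beside 34.9%, and Runx2 peaks in control cells at 9 of the 10, beside 55.9%. The median length of the 10 genes was 58795 bases against 15689 for all, so that more peaks per gene would be found from length alone. An ATAC-seq region covered the start of 6 of the 10 genes, beside 47.4% of genes.

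**Figure D4:**
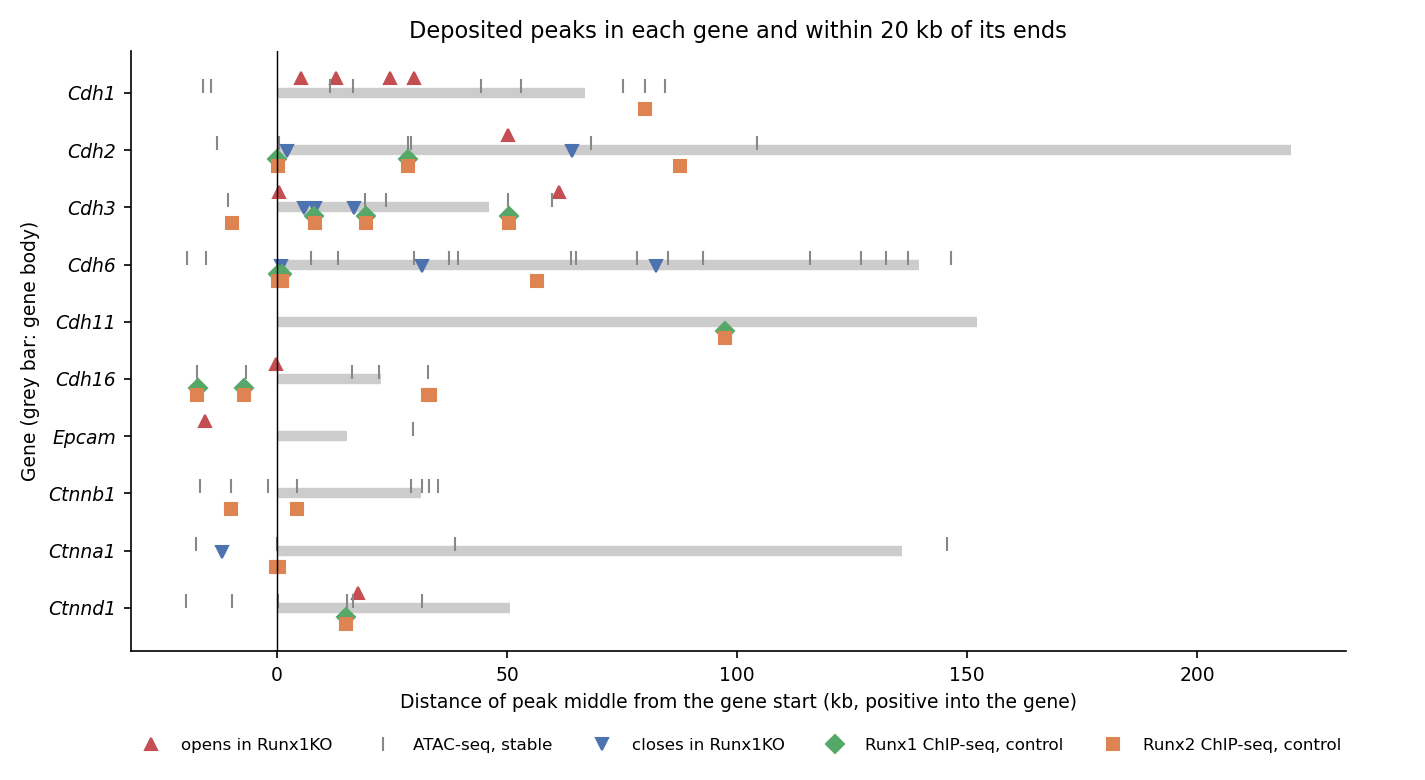
Deposited peaks at each gene, as the distance in kb of the peak's middle from the gene start, with the gene body in grey; triangles are ATAC-seq regions that opened (up) or closed (down) in Runx1KO cells, ticks are stable regions, diamonds and squares are Runx1 and Runx2 peaks of control cells. Opening regions sit over the starts of Cdh3 and Cdh16 and in introns of Cdh1, and a closing region with Runx peaks sits over the start of Cdh6.

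Cdh16 (mm9, chromosome 8, 107125813 to 107148296, minus strand) had 1 opening region, chr8:107147929-107149232, which covered its start. Its 2 Runx1 peaks lay 7.2 and 17.3 kb upstream in stable regions, and Runx2 peaks lay at both places in control and in Runx1KO cells. Of the 10 genes, the one with the largest rise in Runx1KO cells was thus open at its start in those cells, with no Runx1 peak there.

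Cdh3 (mm9, chromosome 8, 109034791 to 109080808, plus strand) also had an opening region over its start, chr8:109034346-109035953. In its introns 3 regions closed in Runx1KO cells, 5.9, 8.2 and 16.6 kb from the start, although its RNA rose. The one at 8.2 kb (chr8:109042570-109043333) carried a Runx1 peak of 4.79-fold enrichment over background, with Runx2 peaks in control and Runx1KO cells at the same place. Cdh3 therefore gained and lost accessible regions at once.

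Cdh1 (mm9, chromosome 8, 109127251 to 109194146, plus strand) had 4 opening regions, all in introns, 5.2, 12.8, 24.5 and 29.8 kb from its start, and none that closed. No deposited ATAC-seq region covered its start and no Runx1 peak lay within 20 kb. Each of the 4 opening regions held at least 1 E-box in its middle 300 bases, up to 3 in the region at 12.8 kb, which also held the letters AACNNGTT of Grhl proteins. The RNA of Cdh1 in the same Runx1KO cells was at 0.1 to 0.3 TPM, so open introns and a level near 0 stood side by side.

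Cdh6 (mm9, chromosome 15, 12963955 to 13103394, minus strand) had 3 closing regions and none that opened. The widest, chr15:13101344-13103648, covered the gene start and carried 2 Runx1 peaks, of 1.96-fold and 2.21-fold enrichment, and 2 Runx2 peaks in control cells. In Runx1KO cells 1 Runx2 peak was listed over the start. The 300 bases around the summit of the Runx1 peak at the start of Cdh6 (minus strand, chr15:13102968-13103267) and of the intronic Runx1 peak of Cdh3 (plus strand, chr8:109042648-109042947), both mm9, are shown as the Runx1 peaks on closing regions in genes of opposite direction in Runx1KO cells. Capitals mark TGTGGT (Runx), CAGGTA or CAGGTG (E-box) and AACNNGTT (Grhl) on either strand.
Cdh6 Runx1 peak: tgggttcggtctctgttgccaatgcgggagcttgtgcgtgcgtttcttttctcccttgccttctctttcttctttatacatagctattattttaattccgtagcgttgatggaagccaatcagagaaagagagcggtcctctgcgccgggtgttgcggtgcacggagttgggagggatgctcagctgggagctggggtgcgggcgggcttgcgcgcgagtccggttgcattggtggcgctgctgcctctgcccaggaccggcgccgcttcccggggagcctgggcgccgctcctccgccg
Cdh3 Runx1 peak: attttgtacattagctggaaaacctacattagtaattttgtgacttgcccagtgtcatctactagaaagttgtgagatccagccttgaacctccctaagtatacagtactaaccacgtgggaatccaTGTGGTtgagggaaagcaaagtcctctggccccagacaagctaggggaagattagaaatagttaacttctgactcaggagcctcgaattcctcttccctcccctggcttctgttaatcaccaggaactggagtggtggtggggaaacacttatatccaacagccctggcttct
The Cdh3 peak held 1 Runx match and the Cdh6 peak none of the 3 motifs. A Runx match was found in 37.6% of the 9977 Runx1 peaks over the same number of bases, in 16.8% of RefSeq promoters and in 35.6% of closing regions. The Cdh6 stretch was 61.3% G or C and the Cdh3 stretch 46.0%.

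Of the genes left, Cdh2 had 2 closing regions, 2.2 and 64.2 kb into its introns, 1 opening region and a stable region with Runx1 and Runx2 peaks over its start. Ctnna1 had a closing region 11.9 kb upstream and a stable region over its start with Runx2 peaks in control and in Runx1KO cells. Ctnnd1 had 1 opening intronic region and a Runx1 peak of 7.88-fold enrichment 15.0 kb into the gene, in a stable region with Runx2 in both genotypes. Ctnnb1 had 8 stable regions, none that opened or closed and no Runx1 peak. Cdh11 had no ATAC-seq region and 1 intronic Runx1 peak. In all, the 3 catenins had 1 opening and 1 closing region, the cadherins 8 and 8 and Epcam 1 and 0. The cadherins are more genes and cover more bases in total than the catenins, and these totals allow for neither. No difference between cadherins and catenins is therefore read from them.

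The motifs of the regions were counted as a description. Of the 10 opening regions at these genes 9 held an E-box in their middle 300 bases, beside 62.7% of all opening regions, and 3 held a Runx match, beside 20.9%. Of the 9 closing regions 2 held an E-box, beside 18.7%, and 2 a Runx match, beside 35.6%. A Runx1 peak overlapped 0 of the 10 opening regions, beside 1.3% of all opening regions, and 2 of the 9 closing regions, beside 11.8%. Of the 11 Runx1 peaks at these genes, 7 lay on stable regions, 3 on closing regions and 1 on none. RefSeq promoters were matched for 4 of the 10 genes: Epcam, Cdh6, Ctnnb1 and Ctnnd1. Of these, Epcam alone held an E-box, and none held a Runx or Grhl match, beside 16.8% and 4.2% of all promoters. Promoters of Cdh1, Cdh2, Cdh3, Cdh11, Cdh16 and Ctnna1 were not analysed here.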

How the data were processed

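RNA-seq, ChIP-seq and ATAC-seq reads were trimmed with Trim Galore, aligned to mm9 and counted with featureCounts 1.6.2 by the authors, who deposited TPM with 1 decimal for 9 libraries and with 2 decimals for 6 of them. For ChIP-seq the authors deposited MACS2 peaks of pooled replicates with the fold enrichment at the summit and the −log10 q value. The ATAC-seq lists also hold log2 fold changes and −log10 values of the authors' own comparison, which were not used. TPM keeps no depth, so precision rests on 3 libraries per group.

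A gene entered a fit when 3 of the 6 libraries compared reached 1 TPM. Values of log2(TPM + 1) were tested in limma 3.58.1 (trend, R 4.3.3) and p-values adjusted by Benjamini-Hochberg. Calls needed an adjusted p under 0.05 and, where stated, a 2-fold difference. The pseudocount of 1 understates changes of low genes. The fit was tested on simulated data. Likeness to Cdh1 or Cdh2 was ranked by Pearson r over 9 libraries, with 3 genes named for each. Peaks and sequences were read with Python 3.11.15 and pysam 0.24.0 from mm9, which holds every peak on its main chromosomes, with GENCODE vM1 genes, and promoters came from RefSeq (GRCm38.p6). Overlap needed 1 base. The 10 genes, the marker lists and the other lists were chosen from general knowledge with earlier results of these data known. All 10 genes were named by rule. Alternatives were other pseudocounts, filters, scalings, fold limits and windows, a replicate block, 1 fit over 9 libraries, no trend, each library left out and the 6-library table. A gene of the list around Epcam, and the counts over that list, are not reported here. Leaving Epcam out of the counts and reading the cadherin shares from the second table were chosen after seeing the data.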

Additional observations from a re-analysis of the deposited data

Results flagged for a closer look

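Cdh6 moved in opposite directions in the knockouts. All 3 Runx1KO libraries (31.2 to 33.2 TPM) lay below the 3 control libraries (36.8 to 42.9 TPM), and all 3 ZebDKO libraries (138.7 to 152.2 TPM) lay above them. The test of the difference itself, ZebDKO minus Runx1KO on log2(TPM + 1), gave 2.13 (SE 0.044, limma adjusted p = 4.299e-08). Both directions were kept under each alternative run. Its closing region with Runx1 peaks over the gene start was measured in Runx1KO cells, and the series holds no ATAC-seq library of ZebDKO cells.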

How the results depend on the processing

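Across the alternatives, 111 of 112 recomputed differences of the tested genes between Runx1KO and control kept direction and call, 114 of 120 between ZebDKO and control and 119 of 120 between the knockouts. Both counts with ZebDKO cells include Epcam, whose direction was fixed by the level of 0 in the other group. The exceptions were catenins. Ctnnb1 lost its call in Runx1KO cells under median-ratio scaling, and gained one in ZebDKO cells (0.20). Its ZebDKO difference turned to −0.0235 under quantile normalization, −0.0055 without control replicate 3 and −0.0075 without ZebDKO replicate 2, and reached 0.0285 without ZebDKO replicate 3. Ctnnd1 in ZebDKO cells turned to 0.13 under median-ratio scaling and 0.16 under quantile normalization, and Ctnna1 between the knockouts to 0.0534 under median-ratio scaling. The cause was not tested.

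A limit of 1.3-fold in place of 2-fold raised the genes called from 1700 to 4857, from 1917 to 6746 and from 2066 to 6780. Members called became 3 higher and 1 lower in Runx1KO cells, 1 lower in ZebDKO cells and 1 lower between the knockouts. Between the knockouts Cdh3 (0.42) was also added on the higher side. The totals are of 13067, 12974 and 13071 genes tested and hold both directions. Shares by direction were not computed at this limit, so no result about the members is read from these counts. Without the filter, 2 members were lower in ZebDKO cells, Cdh11 being the added one, beside 26.8% of 24953 genes. With Epcam counted as tested, 5 members were higher in ZebDKO cells than in control (4 at 2-fold), beside 26.9% of all genes (7.50% at 2-fold). Against Runx1KO cells 5 were higher (2 at 2-fold, against 1 without it), beside 29.8% (6.60% at 2-fold). Epcam had to differ to be tested, so its part in these counts carries no weight. Leaving out 1 library gave 1699 to 1707, 1895 to 1960 and 2036 to 2104 genes called and no change in the member counts. Where this left 2 libraries in a group, limma pooled the spread over both groups. The log2 ratio of Cdh1 to Cdh2 moved with the pseudocount: at 0.1 it was −10.38, −8.95 and −8.27 in control, Runx1KO and ZebDKO cells, and at 0.5 −8.80, −7.68 and −7.53. In the second table it was −7.30 in control and −6.32 in Runx1KO cells. Counting peaks within 1 kb of the start alone, 1 gene had a closing, 2 an opening and 3 a stable region, 2 a Runx1 peak and 3 a Runx2 peak in control and 3 in Runx1KO cells. Shares over all genes were not computed at this window, so no result about the members is read from these peak counts.

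With the replicate number as a block, 1709, 1923 and 2073 genes were called. Deviations of same-numbered libraries correlated at −0.0495 to 0.0399, so the numbers did not pair the libraries. Taking only ATAC-seq regions with a 4-fold change was not run, because it rests on the authors' own fold changes.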
